A study of Mus musculus with 12 samples.

Results

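The genes described here encode the machinery of synaptic vesicles and of regulated exocytosis. They are a named set of 44 genes, matched by symbol to the 30399 Ensembl genes of the expression table, and all 44 were found. The set was drawn up by function, not by a threshold on these data, but with earlier results of these data known. Its directions are therefore no independent evidence. It was read in 5 samples of normal mouse lung and 7 mouse tumors.

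Regulated exocytosis is the release of stored cargo from membrane vesicles when calcium enters the cell. Neurons use it to release transmitter from small synaptic vesicles, and neuroendocrine and other secretory cells use it to release peptides and amines from dense-core granules. SNARE proteins on the vesicle and on the plasma membrane zip together and fuse the bilayers, synaptotagmins sense calcium, complexins clamp and assist the SNAREs, Rab3 proteins and their partners bring vesicles to the membrane, and active zone proteins hold and prime them there. In the lung, pulmonary neuroendocrine cells are a rare epithelial type that stores granules of this kind, and alveolar type II cells secrete surfactant by a related route.

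The tumors come from a study that made mouse lung cancer models by mutagenesis with CRISPR/Cas9 delivered without a virus. The labels call one group "normal lung" and the other "tumor" and give no genotype, targeted gene, strain, sex, age, treatment or time for either, so nothing more can be said of what the groups share. The tumor titles carry 4 distinct numbers, with 159 on tumors 3 and 4 and 201 on tumors 5, 6 and 7. They carry a word for trachea on tumors 1 and 7 and a word for lung on tumors 3, 4, 5 and 6. In tumors 3 and 4 that word is followed by the letters D and I. The labels do not say what the numbers stand for or whether samples came from separate animals, so p-values measure the spread between these samples, part of which may be technical.

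Library depth was between 11126432 and 17032234 gene-assigned reads for normal lung and between 13093843 and 24217633 for tumors. Values are normalized read counts, that is reads divided by a size factor for the library, and 3 reads are worth at most 4.85 in normal lung and 3.57 in tumors. Differences between groups are log2 fold changes of (normalized count + 1) from limma, tumor minus normal lung, with p adjusted over the 23674 genes tested. Genes were called higher or lower where the adjusted p was under 0.05 and the fold change was 1 or more on the log2 scale, in either direction (the fold limit). Levels are compared between genes only per kilobase of exon. Markers of lung epithelium were present in the samples labelled normal lung, while the labels name no cell type for the tumors. All 10 lung epithelium markers were above 3 reads in every normal lung, and all 10 neuroendocrine markers in every tumor. Summed over each list, lung epithelium markers came to 285495 to 500869 normalized counts in normal lung and 1187 to 4148 in tumor, and neuroendocrine markers 256 to 384 and 36603 to 134963. Y-linked genes were expressed in 4 normal lungs out of 5 and in 1 tumor out of 7. In bulk tissue, more cells of a type and more RNA per cell cannot be told apart.

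Most of these 44 genes were higher in the tumors. Of them, 32 (72.7%) were called higher in tumor, 2 (4.55%) were called lower, Rab3d and Unc13b, and 10 were not called. Over all genes tested, 48.5% were called, 24.0% higher and 24.5% lower. In edgeR with TMM factors, 31 of 43 members tested were called higher and 1 lower, where 25.2% and 20.6% of all genes were. By the adjusted p alone 37 of the 44 passed, and 61.5% of all genes did. All 44 passed the filter on low values. Every tumor lay above every normal lung in 28 of the genes and below every normal lung in 2, where the shares over all genes tested were 20.1% and 18.4%. The median log2 fold change of the set was 4.12, against 0.04 over all genes tested, and single genes ran from -1.48 for Rab3d to 10.68 for Cadps. In Syt4, Rph3a and Cadps every normal lung held 3 reads or fewer, and with those genes set at the lower bound that 3 reads give, the median was 3.95.

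**Figure D1:**
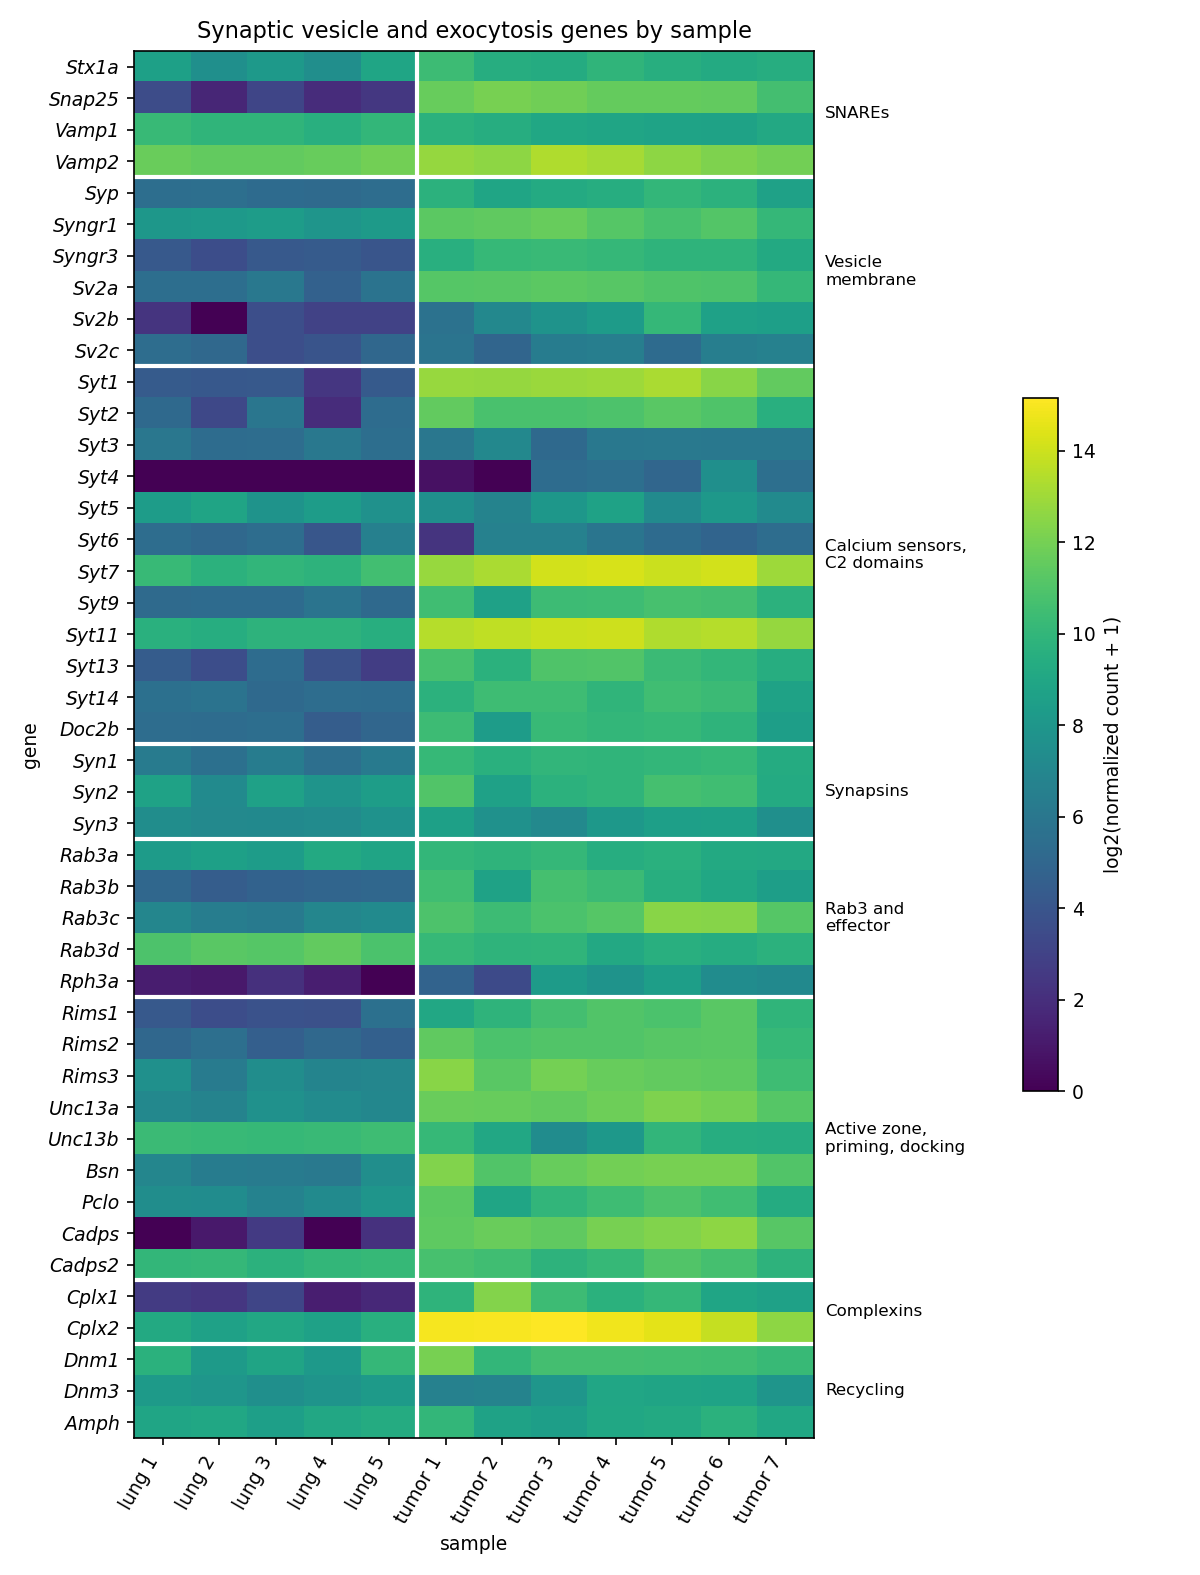
Normalized counts, as log2(normalized count + 1), of the 44 genes (rows, by role) in the 5 normal lungs and 7 tumors (columns), with colour from dark blue (low) to yellow (high). Most rows are blue in normal lung and green or yellow in every tumor, while the rows of Vamp1, Rab3d and Unc13b are brighter in normal lung.

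Promoters of several members are printed because 32 of the 44 genes were called in the same direction and 2 short motifs are known from neuronal and neuroendocrine genes. The RE1 element is the site of the repressor REST, which keeps neuronal genes off in other cells, and CAGCTG is a form of the E-box to which factors of the basic helix-loop-helix family bind. A RefSeq table of promoter windows (GRCm38.p6, 250 bases before to 50 after each start site) held 45 windows for 34 of the 44 genes. The RE1 core, spelled AGCACCNNGGACAG and searched on both strands, was not found exactly in any of them, and 17 of all 32851 windows in the table (0.0517%) held it. With at most 1 mismatch it was found in 3 of the 45 windows (6.67%), those of Syn1, Syt2 and Rph3a, and in 0.353% of all windows. In the 3 stretches that follow, 5′ to 3′ on the strand of the gene, capitals mark the match.
Syn1, chrX:20921094-20921168, minus strand: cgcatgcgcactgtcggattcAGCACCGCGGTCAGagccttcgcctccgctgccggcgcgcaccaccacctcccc
Syt2, chr1:134646451-134646544, plus strand: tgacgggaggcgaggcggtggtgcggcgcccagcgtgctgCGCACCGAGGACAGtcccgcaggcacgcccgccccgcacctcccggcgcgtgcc
Rph3a, chr5:121009577-121009670, minus strand, with the motif in reverse: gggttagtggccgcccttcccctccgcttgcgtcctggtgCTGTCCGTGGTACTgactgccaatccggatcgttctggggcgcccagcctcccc

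All 3 genes were called higher in tumor, where 72.7% of all 44 members were. The E-box CAGCTG, which reads the same on both strands, was found in a window of 12 of the 34 genes (35.3%), against 18.3% of the 27025 genes in the table. Of those 12, Bsn, Cplx1, Cplx2, Rab3c, Rph3a, Stx1a, Sv2a, Syt1 and Syt14 were called higher, and Amph, Rab3a and Syt6 were not called. These 9 of 12 are near the 72.7% of all 44 members called higher. The stretches around it are shown for Cplx1, Cplx2, Syt1 and Sv2a, members with large changes, with the E-box in capitals.
Cplx1, chr5:108550064-108550149, minus strand: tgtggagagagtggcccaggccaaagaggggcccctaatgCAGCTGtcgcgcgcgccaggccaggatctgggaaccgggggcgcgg
Cplx2, chr13:54302354-54302439, plus strand: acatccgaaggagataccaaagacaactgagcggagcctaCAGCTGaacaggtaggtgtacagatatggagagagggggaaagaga
Syt1, chr10:109009112-109009182, minus strand: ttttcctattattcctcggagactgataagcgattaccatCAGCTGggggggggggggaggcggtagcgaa
Sv2a, chr3:96180977-96181043, plus strand: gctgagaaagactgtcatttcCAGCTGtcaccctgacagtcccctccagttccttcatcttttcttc

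These are matches of letters in reference sequence, and binding was not measured. The E-box lies 82 bases before the start site in Cplx1, 162 in Cplx2, 31 in Syt1 and 229 in Sv2a, counted to its first base.

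Among the SNARE proteins, the plasma membrane partners of the neuronal complex rose and the vesicle partners were not called. Snap25 (ENSMUSG00000027273), a SNARE anchored to the plasma membrane, was measured at 10.3, 2.15, 8.08, 2.82 and 4.60 normalized counts in the normal lungs, in the order 1 to 5 used throughout. Its tumor values were 1556 at the lowest (tumor 7), 3069 at the median and 4284 at the highest (tumor 2). The lowest tumor lay far above the highest normal lung. The means were 5.59 ± 3.50 (SD, n = 5) and 3099.9 ± 842 (SD, n = 7), and Snap25 rose by 8.99 on the log2 scale (SE 0.34, limma adjusted p = 4.14e-10). Stx1a (ENSMUSG00000007207), syntaxin 1A, had 388, 185, 299, 179 and 479 normalized counts in normal lungs and 609, 706 and 1338 as the lowest, median and highest tumor values. The groups did not overlap, and Stx1a rose by 1.45 (SE 0.28, limma adjusted p = 5.27e-04).

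Vamp2 (ENSMUSG00000020894), synaptobrevin 2, the vesicle SNARE of neurons that many secretory cells share, was already high in normal lung. It had 3295, 2963, 2941, 3235 and 3901 normalized counts there and 3841, 6249 and 10677 as the lowest, median and highest tumor values. Only tumor 7 lay within the range of normal lung. Its log2 fold change of 0.99 (SE 0.22, limma adjusted p = 0.00162) was just short of the fold limit of 1, and it passed when normal lung 5, tumor 5, tumor 6 or tumor 7 was left out (1.01 to 1.11) and under equal totals, that is with all columns scaled to the same sum (1.19). It also passed with tumors of 1 title number treated as correlated (1.03) or averaged (1.05), without the trachea-titled tumors (1.11) and with the Y-linked level in the fit (1.14). Vamp1 (ENSMUSG00000030337), the related synaptobrevin 1, had 1169.7, 948, 972, 756 and 1068 normalized counts in normal lung and 418, 523 and 823 as the lowest, median and highest in tumors. Tumor 1, at 823, was above normal lung 4, and the log2 fold change of -0.82 (SE 0.19, limma adjusted p = 0.00193) was short of the fold limit as well. Per kilobase of exon, Vamp2 had the highest mean level of the 44 genes in normal lung, 858 normalized counts, and 1783 in tumors.

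All 6 integral proteins of the vesicle membrane rose, with a median log2 fold change of 4.74. Syp (ENSMUSG00000031144), synaptophysin, an abundant protein of small vesicles that pathologists stain to recognise neuroendocrine tumors, had 43.8, 46.2, 38.8, 36.7 and 42.5 normalized counts in normal lungs and 411, 687 and 1066 as the lowest, median and highest tumor values. The lowest tumor was tumor 7 and the highest tumor 5, and all were well above normal lung. Its means of 41.6 ± 3.86 (SD, n = 5) and 714 ± 232 (SD, n = 7) differ 17.2-fold. The count of Syp is uncertain, because 16.8% of its exon bases are shared with another listed gene, Gm14703, and whether strand was used is not given in the sources used here. Its relatives the synaptogyrins also rose. Syngr1 (ENSMUSG00000022415) went from 283 ± 39.2 to 2264 ± 690.1 and had log2 fold change 2.93, and Syngr3 (ENSMUSG00000007021) from 16.3 ± 3.53 to 956 ± 229.8, with 5.78.

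Sv2a (ENSMUSG00000038486), the broadly expressed member of a family of transporter-like vesicle glycoproteins, had 43.8, 44.1, 66.2, 25.4 and 54.0 normalized counts in normal lungs and 1082, 2276 and 2613 as the lowest, median and highest in tumors. The groups were far apart, 45.1-fold by their means, with a log2 fold change of 5.48 (SE 0.26, limma adjusted p = 1.94e-09). Its relative Sv2b (ENSMUSG00000053025) varied far more among tumors. Sv2b had 3.87, 0, 11.3, 7.05 and 6.90 in normal lungs, 51.3 in tumor 1 as the lowest, a median of 323, and 1100.1 in tumor 5 as the highest, a 21.5-fold range. Sv2b was above every normal lung in every tumor and had log2 fold change 5.66 (SE 0.73, limma adjusted p = 1.86e-05). Sv2c (ENSMUSG00000051111) was the low member in tumors, at 69.2 ± 27.8 against 26.4 ± 13.1 in normal lung. Its groups overlapped, with tumors 2 and 5 at 29.8 and 38.8 against normal lungs of 11.3 to 41.3, and its log2 fold change came to 1.39 (SE 0.42, limma adjusted p = 0.0112). Per kilobase of exon, mean tumor levels were 454 for Sv2a, 44.5 for Sv2b and 7.13 for Sv2c.

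Among the 12 synaptotagmins and C2-domain relatives, 9 rose, none were called lower, and Syt3, Syt5 and Syt6 were not called. Syt1 (ENSMUSG00000035864), the fast calcium sensor of synaptic vesicles, had 19.3, 17.2, 17.8, 4.23 and 18.4 normalized counts in normal lungs and 2951, 7276 and 9572 as the lowest, median and highest in tumors. The lowest was tumor 7, which still lay far above every normal lung. Its means of 15.4 ± 6.29 (SD, n = 5) and 6827 ± 2071 (SD, n = 7) differ 444-fold, with a log2 fold change of 8.78 (SE 0.36, limma adjusted p = 7e-10). Syt2 (ENSMUSG00000026452), the close relative that serves fast synapses of the hindbrain and spinal cord, had 34.8, 8.60, 59.8, 2.82 and 40.2 in normal lungs and 757, 1942 and 2972 as the lowest, median and highest in tumors. Normal lungs thus differed among themselves, but no tumor came near them, and the log2 fold change came to 6.51 (SE 0.60, limma adjusted p = 7.81e-07). Syt9 (ENSMUSG00000062542), which also acts as a fast sensor, had log2 fold change 4.79, from 41.4 ± 8.50 to 1264 ± 468.

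Syt7 (ENSMUSG00000024743), a slow, high-affinity sensor of dense-core granules and of lysosome exocytosis, and Syt11 (ENSMUSG00000068923), which does not bind calcium, were the synaptotagmins with the highest levels per kilobase of exon in both groups. Syt7 had 1190.3, 863, 1024, 876 and 1519.8 normalized counts in normal lungs and 7189.8 (tumor 1), 15596 and 19684 (tumor 4) as the lowest, median and highest in tumors. Syt11 had 776, 697, 880.2, 900.0 and 719 in normal lungs and 6875 (tumor 7), 11535 and 16303 (tumor 4) in tumors. Neither gene's groups overlapped, and the log2 fold changes were 3.57 for Syt7 (SE 0.28, limma adjusted p = 1.5e-07) and 3.90 for Syt11 (SE 0.19, limma adjusted p = 2.75e-09). Both started from a far higher level in normal lung than Syt1 did. Per kilobase of exon, normal lung levels were 146.2 for Syt7, 153 for Syt11 and 1.85 for Syt1, and tumor levels 1821, 2342 and 819.

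Syt13 (ENSMUSG00000027220) and Syt14 (ENSMUSG00000016200), relatives that lack calcium binding, rose from 18.0 ± 13.6 to 1381 ± 569 and from 43.9 ± 7.03 to 1122 ± 387 (log2 fold changes 6.34 and 4.55). Doc2b (ENSMUSG00000020848), a high-affinity calcium sensor with C2 domains, rose from 35.4 ± 9.26 to 911 ± 402 (log2 fold change 4.52), with tumors 2 and 7 lowest at 338 and 361. Syt4 (ENSMUSG00000024261), a synaptotagmin of dense-core vesicles, was at 0 in all 5 normal lungs. Its tumor values were 0.633, 0, 39.7, 45.8, 30.7, 185 and 44.8 in tumors 1 to 7, so tumors 1 and 2 were at 3 reads or fewer and the other 5 were above. The mean of 49.5 ± 62.7 is at least 10.2-fold higher than 3 reads in the shallowest normal library, and without tumor 6 the mean is 26.9, at least 5.56-fold higher. The call of Syt4 (limma adjusted p = 0.00482) was lost when the level of Y-linked genes entered the fit (limma adjusted p = 0.0984), and 14.5% of its exon bases are shared with Gm26658.

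The synaptotagmins that were not called include 1 whose mean was higher in normal lung. Syt5 (ENSMUSG00000004961) had 330.2, 456, 219.7, 334 and 199 normalized counts in normal lungs and 107, 187.4 and 425 as the lowest, median and highest in tumors. Tumors and normal lungs overlapped, with a log2 fold change of -0.53 (SE 0.33, limma adjusted p = 0.172). Syt3 (ENSMUSG00000030731) had 63.2, 40.9, 42.0, 64.9 and 43.7 in normal lungs against 35.7, 66.5 and 135 as the lowest, median and highest in tumors, with a log2 fold change of 0.43 (SE 0.31, limma adjusted p = 0.246). Syt6 (ENSMUSG00000027849) had 42.6, 34.4, 42.0, 15.5 and 96.6 in normal lungs against 3.80, 42.3 and 102 in tumors, with a log2 fold change of -0.03 (SE 0.69, limma adjusted p = 0.968). The tumor values of each of these 3 genes reached both above and below the median of normal lung. Syt5 was among the higher members in normal lung per kilobase of exon, at 129 and in place 6 of 44.

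**Figure D2:**
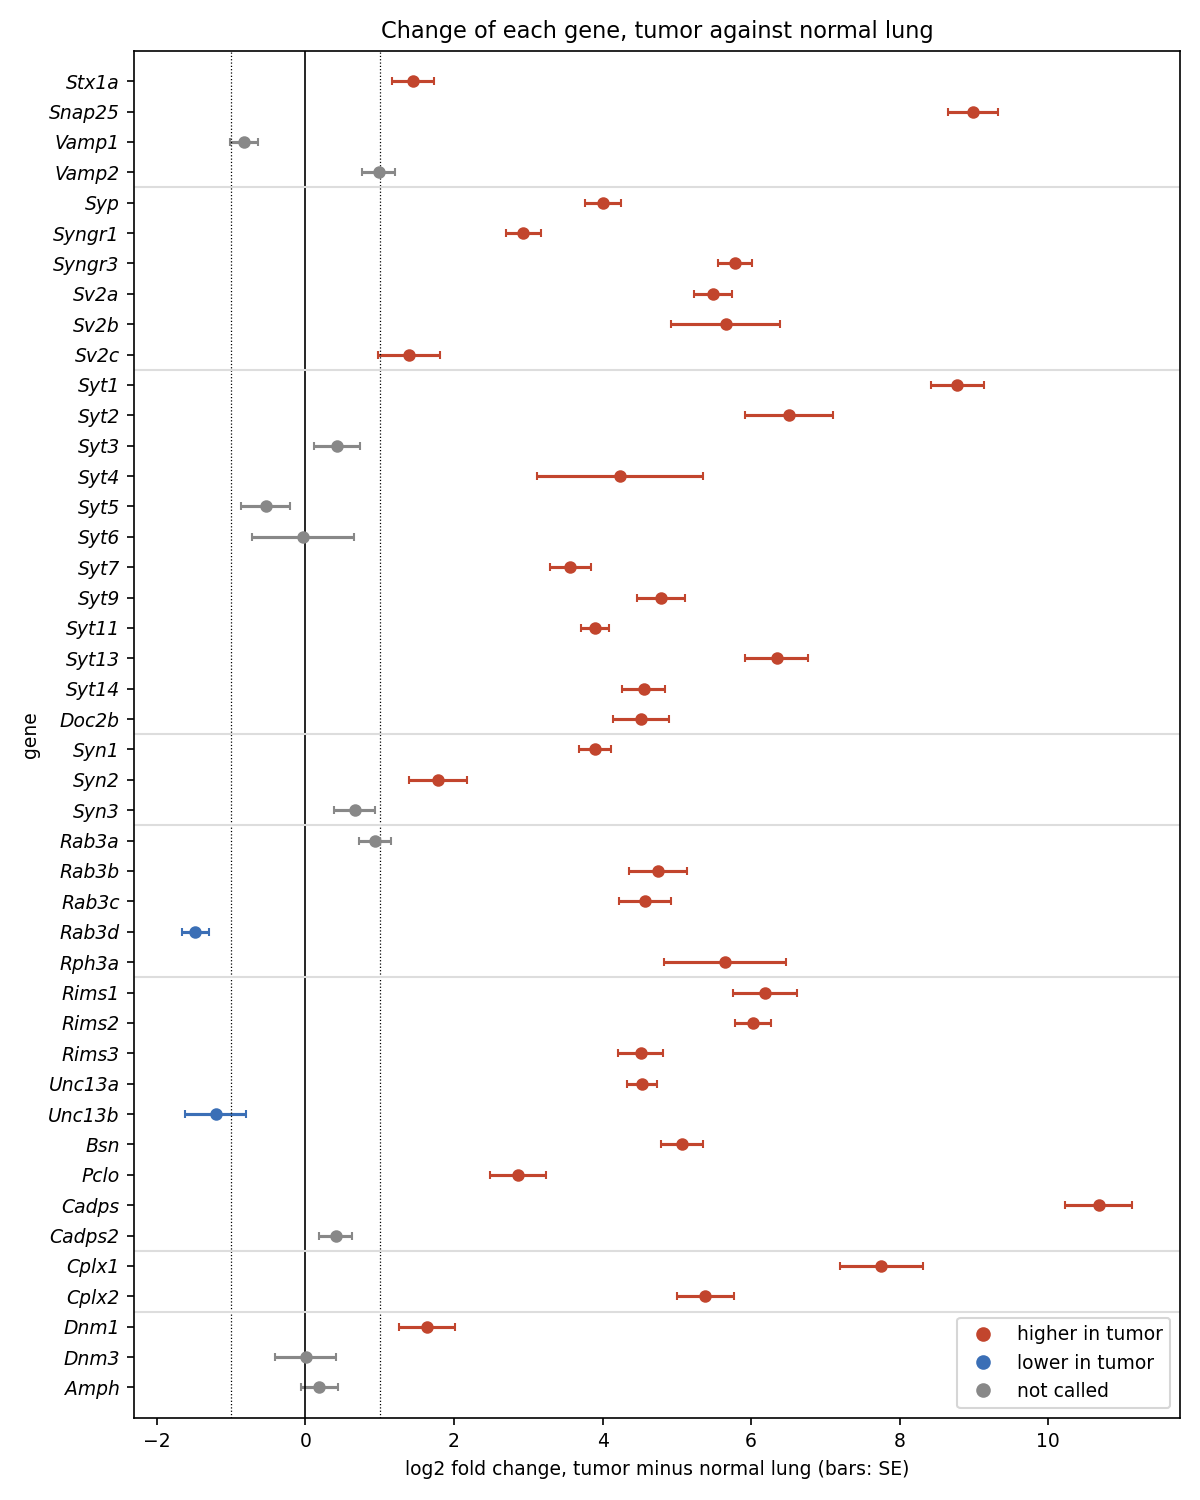
Log2 fold change of each of the 44 genes, tumor minus normal lung, on the log2(normalized count + 1) scale, ordered within roles, with bars of 1 SE and the fold limit of 1 drawn in each direction. Cadps, Snap25 and Syt1 lie farthest to the right, and only Rab3d and Unc13b are called on the left.

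Synapsins tether vesicles to each other and to the cytoskeleton. Syn1 (ENSMUSG00000037217) had 77.4, 47.3, 82.4, 45.1 and 72.4 normalized counts in normal lungs and 639, 1011 and 1155 as the lowest, median and highest in tumors. It was the steadiest among tumors of the genes called higher, with a log2 SD of 0.31, and it rose by 3.89 (SE 0.22, limma adjusted p = 7.75e-09). Syn2 (ENSMUSG00000009394) had 433, 154, 410.2, 231 and 340.3 in normal lungs and 409.8 (tumor 2), 975 and 2145 (tumor 1) in tumors. Only tumor 2 reached into the normal lung range, and Syn2 rose by 1.79 (SE 0.40, limma adjusted p = 0.00152). Syn3 (ENSMUSG00000059602) was not called, at 166 ± 28.7 in normal lung and 278 ± 104 in tumors, with a log2 fold change of 0.66 (SE 0.28, limma adjusted p = 0.0523).

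The Rab3 family of vesicle GTPases moved in different directions. Rab3d (ENSMUSG00000019066), the member of exocrine, mast and other non-neuronal secretory cells, fell. It had 1977, 2498, 2272, 2931 and 1898 normalized counts in normal lungs and 565, 855 and 1128 as the lowest, median and highest in tumors. All tumors were below all normal lungs, the means differ 2.76-fold (2315 ± 419 and 837 ± 190.1), and the log2 fold change came to -1.48 (SE 0.18, limma adjusted p = 1.19e-05). Rab3b (ENSMUSG00000003411) and Rab3c (ENSMUSG00000021700), which neurons and endocrine cells express, rose by 4.75 (SE 0.39) and 4.57 (SE 0.35). Rab3b had 32.2, 21.5, 25.8, 29.6 and 32.2 in normal lungs and 362 (tumor 7), 712 and 1681 (tumor 3) as the lowest, median and highest in tumors. Rab3c had 121, 86.0, 75.9, 123 and 153 in normal lungs and 1363 (tumor 2), 2251 and 5565 (tumor 5) in tumors. Tumor 6, at 5468, was close to tumor 5 in Rab3c, and the other 5 tumors were at 2273 or less.

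Rab3a (ENSMUSG00000031840), the main Rab3 of synaptic vesicles, was not called. It had 322, 396, 336, 588 and 467 normalized counts in normal lungs and 576, 778 and 1079.7 as the lowest, median and highest in tumors, so that tumors 6 and 7 overlapped with normal lung 4. Its log2 fold change of 0.94 (SE 0.21, limma adjusted p = 0.0018) was short of the fold limit, which it passed when normal lung 4, tumor 6 or tumor 7 was left out (1.01 to 1.07). It also passed with tumors of 1 title number averaged (1.06), under equal totals (1.15) and with the Y-linked level in the fit (1.21). Rph3a (ENSMUSG00000029608), rabphilin, an effector that binds Rab3 on the vesicle, had 1.29, 1.08, 3.23, 1.41 and 0 in normal lungs, none above 3 reads. Its tumor values were 27.2, 9.53, 322, 220.0, 356, 165 and 145 in tumors 1 to 7, lowest in tumors 1 and 2. The tumor mean of 178 ± 133 (SD, n = 7) is at least 36.7-fold above 3 reads (limma adjusted p = 5.39e-05). Per kilobase of exon the order of the Rab3 genes in normal lung was Rab3d 552, Rab3a 189, Rab3c 9.28 and Rab3b 8.03, and in tumors Rab3a 365, Rab3b 260, Rab3c 246 and Rab3d 199.6. The ranges of the 4 genes overlap in tumors, and whether neighbours in that order differ within samples was not tested. The same holds for Rab3b and Rab3c in normal lung.

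Of 9 genes for the active zone, priming and docking, 7 rose, Unc13b fell and Cadps2 was not called. Cadps (ENSMUSG00000054423), the priming factor CAPS1 of dense-core granules, had the largest change of the 44 genes. It had 0, 1.08, 4.85, 0 and 3.45 normalized counts in normal lungs, at most 3 reads in any of them, and 2399.7 (tumor 7), 3358 and 6264 (tumor 6) as the lowest, median and highest in tumors. The tumor mean of 3841 ± 1416 (SD, n = 7) is at least 793-fold above 3 reads (limma adjusted p = 8.98e-10). Its relative Cadps2 (ENSMUSG00000017978) had 1043, 1109.6, 838, 1029.8 and 1119 in normal lungs and 888, 1464 and 2110.5 as the lowest, median and highest in tumors. The groups overlapped, with normal lung 3 below every tumor, and the log2 fold change of 0.41 (SE 0.22, limma adjusted p = 0.123) was not called. Per kilobase of exon, Cadps was at 0.124 and Cadps2 at 107 in normal lung, and at 255 and 149 in tumors.

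The Unc13 pair, which encodes the priming proteins Munc13-1 and Munc13-2, moved in opposite directions. Unc13a (ENSMUSG00000034799) had 134, 109.7, 203, 161 and 129 normalized counts in normal lungs and 2247, 3253 and 4884 as the lowest, median and highest in tumors, a rise of 4.54 (SE 0.20, limma adjusted p = 1.32e-09). Unc13b (ENSMUSG00000028456) had 1266, 1187, 1143, 1226 and 1392 in normal lungs, and 1124, 543, 164, 273, 993, 699 and 667 in tumors 1 to 7. All tumors were below all normal lungs, but tumor 1 only just, while tumors 3 and 4, which share a title number, were far below. Unc13b had log2 fold change -1.21 (SE 0.41, limma adjusted p = 0.0191). That call was lost in limma without tumor 3 (-0.93). The fits in edgeR (-0.71 with TMM factors, adjusted p = 0.0515) and DESeq2 (-0.77), in which it was not called either, also leave out tumor 3. It was lost with all 7 tumors under equal totals (adjusted p = 0.0518) and with the Y-linked level in the fit (-0.84, adjusted p = 0.202).

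The scaffolds of the active zone rose together. Bsn (ENSMUSG00000032589), bassoon, had 123, 81.7, 77.5, 69.1 and 180.5 normalized counts in normal lungs and 2099, 3859 and 4910.1 as the lowest, median and highest in tumors, a rise of 5.07 (SE 0.28, limma adjusted p = 8.38e-09). Pclo (ENSMUSG00000061601), its relative piccolo, had 173, 162, 105, 152 and 238 in normal lungs and 478 (tumor 2), 1382 and 2546 (tumor 1) in tumors, a smaller rise of 2.86 (SE 0.38, limma adjusted p = 2.15e-05). The RIM genes Rims1 (ENSMUSG00000041670) and Rims2 (ENSMUSG00000037386), whose proteins link Rab3 to Munc13 and to calcium channels, had log2 fold changes of 6.18 and 6.03. Rims3 (ENSMUSG00000032890), of the same family, had 4.51. Means went from 20.3 ± 15.2 to 1498 ± 721 for Rims1, from 31.8 ± 9.43 to 2138 ± 526 for Rims2 and from 136 ± 44.9 to 3210.3 ± 1316 for Rims3. Rims1 was lowest in tumor 1, at 537, where Rims2 and Rims3 were highest, at 2779 and 5610.3.

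Both complexins rose. Cplx2 (ENSMUSG00000025867) had 595, 406, 543, 403 and 746 normalized counts in normal lungs and 6203 (tumor 7), 29369.5 and 36645 (tumor 3) as the lowest, median and highest in tumors. Tumors 6 and 7, at 14544 and 6203, were well below the other 5, which were at 24048 or more, and Cplx2 rose by 5.38 (SE 0.39, limma adjusted p = 7.33e-08). Per kilobase of exon Cplx2 had the highest level of the 44 genes in tumors, 5085, where the next were Syt11 at 2342, Syt7 at 1821 and Vamp2 at 1783. In normal lung it was at 109 and in place 10 of 44. Cplx1 (ENSMUSG00000033615) had 5.16, 4.30, 8.08, 1.41 and 2.30 in normal lungs and 403 (tumor 7), 926 and 5305 (tumor 2) in tumors. Tumor 2 was far above the next highest, tumor 3 at 1348, and the means of 4.25 ± 2.61 (SD, n = 5) and 1481 ± 1719 (SD, n = 7) carry that sample. Without tumor 2 the tumor mean is 843. The log2 fold change of Cplx1 was 7.75 (SE 0.56, limma adjusted p = 7.69e-08).

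**Figure D3:**
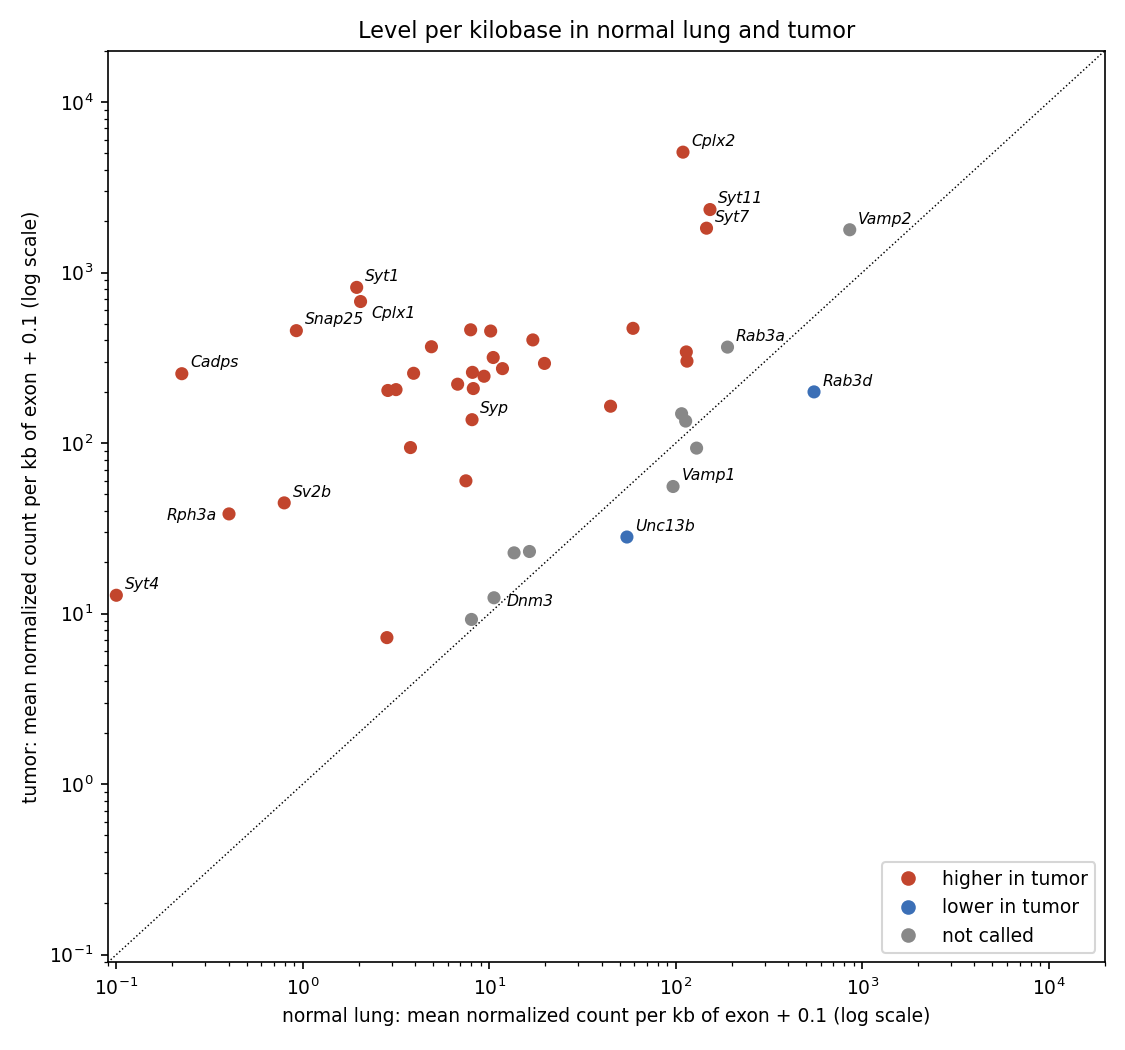
Mean level per kilobase of exon (normalized counts, both axes log scale) of the 44 genes in normal lung (horizontal) and in tumors (vertical), with 0.1 added to both, the diagonal marking equal levels and colour giving the call. Cplx2, Syt11, Syt7 and Vamp2 are at the top, Rab3d and Unc13b lie under the diagonal, and Cadps and Snap25 lie far above it at the left edge.

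Of the roles, the 3 recycling genes of this set had the lowest median log2 fold change, 0.19. Dnm1 (ENSMUSG00000026825), the neuronal dynamin that pinches vesicles off the membrane, had 834, 309.6, 462, 299 and 1084 normalized counts in normal lungs and 1067 (tumor 2), 1497 and 4159.9 (tumor 1) in tumors. Normal lung 5 reached the lowest tumor, and Dnm1 rose by 1.63 (SE 0.38, limma adjusted p = 0.00205). Dnm3 (ENSMUSG00000040265) had 257 ± 51.9 in normal lung and 300.4 ± 169 in tumors, with a log2 fold change of 0.00 (SE 0.41, limma adjusted p = 0.994). Amph (ENSMUSG00000021314), amphiphysin, which recruits dynamin, had 512 ± 99.8 and 609 ± 239, with 0.19 (SE 0.25, limma adjusted p = 0.527). The tumor values of Dnm3 and Amph spanned those of normal lung.

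Ratios between related genes within a sample depend little on how the sample was scaled, so 6 pairs were compared as log2 ratios of (normalized count + 1). In most pairs the first gene is the form best known from neurons and the second is found in more kinds of cells. All 6 ratios shifted toward the first gene in tumors, and no tumor overlapped with a normal lung in any of them. In every pair but Dnm1 to Dnm2, at least 1 of the genes already separated the groups alone, so the ratios partly repeat those values. Ratios of other pairs of genes were not computed for comparison. The log2 ratio of Snap25 to Snap23 went from -7.71 ± 0.85 (SD, n = 5) to 3.18 ± 1.24 (SD, n = 7), a shift of 10.89, or 10.87 under equal totals. The ratio of Cadps to Cadps2 in normal lung rests on the 1 that is added, because Cadps had at most 3 reads there. With Cadps set at 3 reads in normal lung, that ratio had a mean of at most -7.72 in normal lung and of 1.42 in tumors, a shift of at least 9.14. Unc13a to Unc13b went from -3.10 ± 0.40 to 2.65 ± 0.96. Smaller shifts were seen for Stx1a to Stx4a, from -1.24 ± 0.64 to 1.41 ± 0.62, for Rab3a to Rab3d, from -2.47 ± 0.30 to -0.05 ± 0.29, and for Dnm1 to Dnm2, from -2.66 ± 0.55 to -0.65 ± 0.55. Each had an exact two-sided permutation p of 0.00253, also after adjustment over the 6 pairs, and this is the smallest p that 5 against 7 samples can give. In the ratios of Snap25 to Snap23, Stx1a to Stx4a and Rab3a to Rab3d, tumor 7 was the tumor nearest to normal lung, at 0.73, 0.25 and -0.57.

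**Figure D4:**
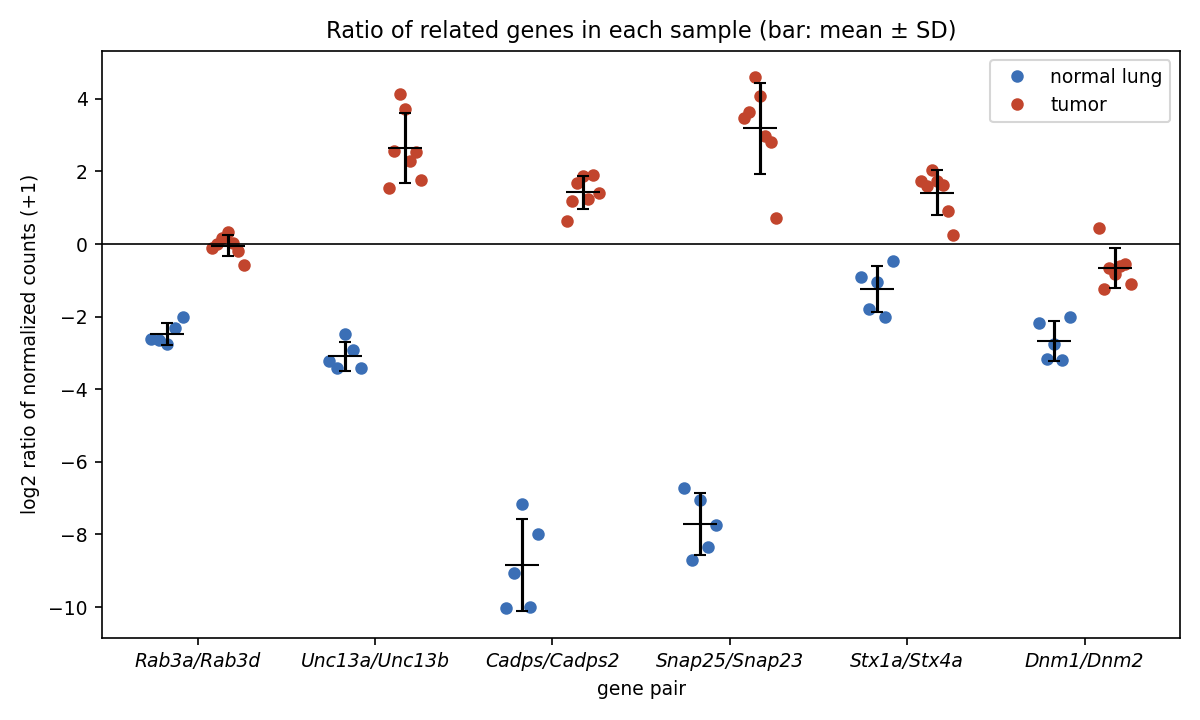
Log2 ratio of (normalized count + 1) for 6 pairs of related genes, with 1 point per sample (5 normal lungs, 7 tumors), lines at the group means and bars of 1 SD. In every pair all tumor points lie above all normal lung points, and the normal lung points of Cadps to Cadps2 rest on at most 3 reads of Cadps.

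In these pairs the second gene moved as well as the first in some cases. Snap23, the broadly expressed relative of Snap25, fell from 1227 ± 55.5 to 385 ± 263 (log2 fold change -1.90, SE 0.35, limma adjusted p = 3.88e-04), with tumor 7 at 939.5 and the other tumors at 410.4 or less. Stx4a, the plasma membrane syntaxin of most cells, fell from a mean of 673 to one of 315 (log2 fold change -1.20). Dnm2, the ubiquitous dynamin, was not called (log2 fold change -0.37, limma adjusted p = 0.039).

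A further list of 81 exocytosis genes outside the set was read the same way, and 76 were in the table and tested, while Vamp3, Vamp7, Syngr2, Slc18a3 and Tprgl were not analysed here. Of the 76, 27 (35.5%) were called higher in tumor and 15 (19.7%) lower, against 24.0% and 24.5% of all genes tested. The median log2 fold change was 0.56, and 0.31 with 8 genes whose normal lungs held 3 reads or fewer set at their bounds. The largest changes among the higher genes were those of Sncb, Syt16, Stxbp5l, Rims4 and Rimbp2. Sncb, beta-synuclein, and Syt16, a synaptotagmin relative, were at 0 in every normal lung and had 1388 ± 985 and 620 ± 286 normalized counts in tumors, at least 286-fold and 128-fold above 3 reads. Stxbp5l, tomosyn 2, which competes for the SNAREs, and Rims4, a short RIM, were at least 169-fold and 177-fold above 3 reads. Rimbp2, which binds RIM and calcium channels, had log2 fold change 5.51 (SE 0.45).

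The largest changes among the lower genes of that list were those of Sytl2, Vamp8, Syt15, Sytl4 and Unc13d. Vamp8 is the vesicle SNARE of mast cells, platelets and exocrine cells, Unc13d encodes Munc13-4 of blood cell granules, and Sytl2 and Sytl4 encode effectors of Rab27. Sytl2 had 749, 819, 709, 635 and 641 normalized counts in normal lungs and 4.96, 17.1 and 153 as the lowest, median and highest in tumors (log2 fold change -5.12, SE 0.60, limma adjusted p = 7.94e-06). Vamp8 had 3830, 5631, 4374, 8376 and 4161 in normal lungs and 36.7, 209 and 1299 in tumors (log2 fold change -4.41, SE 0.65, limma adjusted p = 6.05e-05). Both were highest among tumors in tumor 7. Syt15 had log2 fold change -4.19, Sytl4 -3.68 and Unc13d -3.41. Beside these, the summed markers of leukocytes were 85623 to 165986 in normal lung and 361 to 14517 in tumors (all 9 measured markers called lower), and those of platelets and mast cells 842 to 5081 and 77.3 to 1713 (5 of 8 called lower, 3 not called). The 3 not called are the mast cell genes Mcpt4, Tpsb2 and Cma1, whose highest values, 270.3, 822 and 213, were in tumor 7. Lower calls were also found among markers of other cell types. All 10 of lung epithelium were called lower, with a median log2 fold change of -8.64. So were all 8 of endothelium, with a median of -4.78, and 5 of 8 of smooth muscle and fibroblasts, with -2.08. The medians were -5.03 for leukocytes and -2.06 for platelets and mast cells. Whether any of these cell types had a part in the lower genes, Rab3d and Unc13b included, was not tested.

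Markers of other cells that carry this machinery were read beside the genes that rose. All 10 neuroendocrine markers were called higher. Of 8 peripheral neuron markers, 6 passed the filter and Prph, Phox2a, Chat and Th were called higher, with sums of 547 to 702 in normal lung and 1207 to 4453 in tumors. Phox2a, Chat, Th, Dbh and Hand2 were at 3 reads or fewer in every normal lung. Sums of peripheral glia markers were 3302 to 4133 in normal lung and 2149 to 6142 in tumors, with 3 of 8 markers higher and 2 lower. The part of these cell types in the rise of the exocytosis genes was not tested.

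Tumors differed among themselves about as much in these genes as in others. The median log2 SD over the 7 tumors was 0.63 for the 32 genes called higher, from 0.31 for Syn1 to 2.78 for Syt4, and 0.64 for all 5686 genes called higher in tumor. Rph3a, Sv2b and Cplx1 varied most after Syt4, with the highest tumor 37.3, 21.5 and 13.1 times the lowest. Tumor 7 had the lowest value of the tumors in 19 of the 32 genes (59.4%), and it was the lowest tumor in 42.2% of all genes called higher. Tumor 2 was lowest in 9 (28.1%, against 21.1% of all genes called higher), tumor 1 in 3 (16.2% of all genes called higher) and tumor 6 in 1 (3.52%). Tumors 3, 4 and 5 were lowest in 0 of the 32, where they were lowest in 7.35%, 4.05% and 5.52% of all genes called higher. Highest values were found most often in tumor 1, in 10 genes (31.2%, against 11.9% of all genes called higher), and in tumor 5, in 8 (25.0%, against 17.5%). Tumor 2, the tumor most often highest over all genes called higher (24.3%), was highest in 2 of the 32 (6.25%). Means of log2 values over the 32 genes were 10.38, 9.90, 10.66, 10.68, 10.75, 10.65 and 9.76 in tumors 1 to 7.

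**Figure D5:**
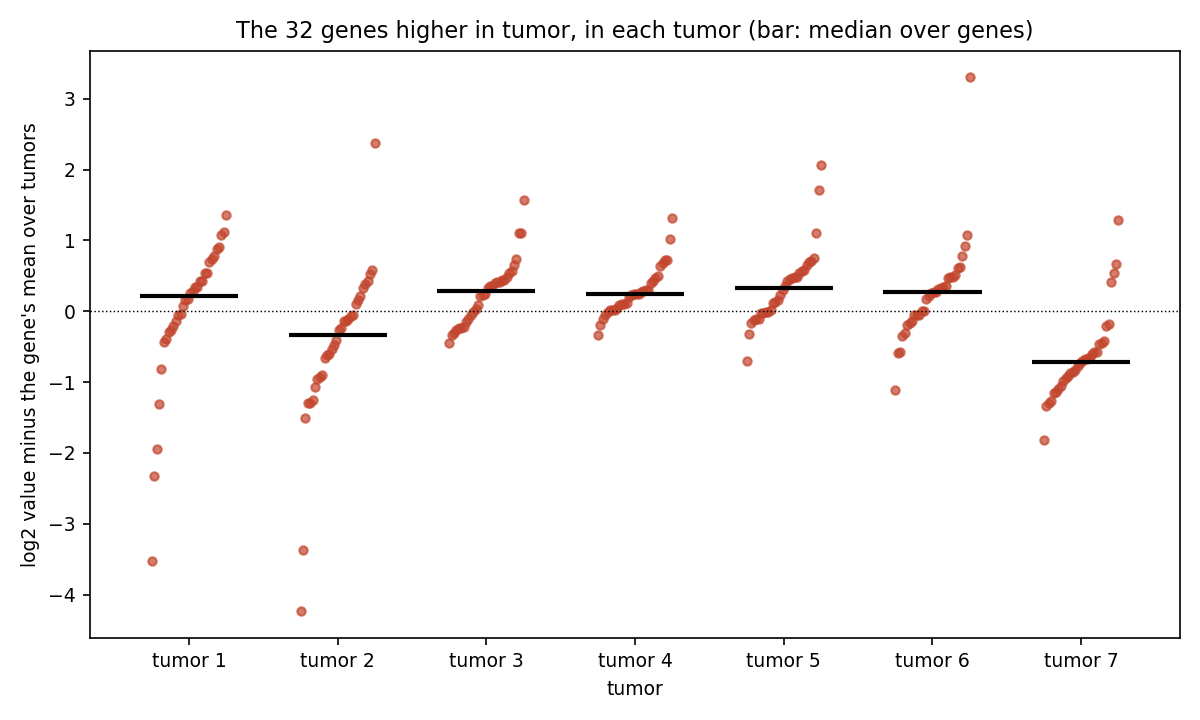
Log2(normalized count + 1) of the 32 genes called higher, minus each gene's mean over the 7 tumors, in each tumor (1 point per gene, sorted within a tumor, bar at the median over genes). The bars of tumors 2 and 7 lie under 0 and those of the other 5 above it, and single points of tumors 1, 2, 5 and 6 lie farthest from 0.

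Tumor 7 also stood apart in markers of other tissues. Its cardiac muscle markers summed to 38981 normalized counts, against 456 to 2849 in the other tumors, its smooth muscle and fibroblast markers to 29367 against 2852 to 17128, and its leukocyte markers to 14517 against 361 to 4047. Its neuroendocrine sum, 36603, was the lowest of the tumors. The part of those tissues in its lower exocytosis values was not tested. Without tumor 7 the number of the 44 genes called higher was 34, with Vamp2 and Rab3a added, and without the trachea-titled tumors it was 33.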

How the data were processed

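Poly-A RNA of 5 normal lungs and 7 tumors was sequenced as paired ends, per the labels' protocols. The deposited table holds a normalized count signal made by the authors, reads per gene divided by a size factor for the library. This was worked out from the values: every column was made of whole multiples of 1 read within 0.001. The submitters' processing notes name featureCounts, DESeq2 and GRCm39. The aligner, the annotation and use of strand are not given in the sources used here. Symbols and exon lengths came from GENCODE M21, which named 29982 of 30399 identifiers, and promoters from RefSeq (GRCm38.p6).

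Genes with a mean of at least 1 were tested with limma 3.58.1 (R 4.3.3; lmFit, eBayes with trend) on log2(value + 1), a scale that understates changes of low genes, with Benjamini-Hochberg adjustment. Count tests (edgeR 4.0.16, DESeq2 1.42.0) served as alternatives on the recovered reads of 11 samples, without tumor 3, whose column failed a stricter test for whole reads. Scripts were tested on simulated data. Ratios and figures used Python 3.11.15 with numpy 2.4.6, pandas 2.3.3 and scipy 1.17.1.

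Groups follow the tissue label, and replicate numbers follow the order of listing. The genes and lists were chosen with earlier results of these data known, so their directions are no independent evidence. Full values were planned for the members of each role that have the highest mean, are lower in tumor or differ in call from most of their role. Some of them, such as Syngr1 and Syn3, are given as means and SD. The 5 largest called changes in each direction of the further list and the second gene of each pair are named, some with a fold change or bound alone. Some other members with large or uneven changes are given in full too, chosen after their values were seen. Exons of 10 members overlap another listed gene, in 2 by over 10%. Floors of 3 reads cover counting error only. Some single markers of these lists are not reported here.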

Additional observations from a re-analysis of the deposited data

Results flagged for a closer look

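For each of the 44 genes, the highest and the lowest sample of a group were compared with the rest of that group by Dixon's ratio at its 95% limit, on log2(normalized count + 1). In 9 of 87 groups of values a sample stood apart, where chance flags about 1 in 20, or 4.35.

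Tumor 7 was the lowest tumor in 4 of them. It had log2 values of 10.60 for Snap25 (11.49 to 12.06 in the other tumors), 10.08 for Sv2a (10.95 to 11.35), 9.57 for Syt2 (10.78 to 11.54) and 8.73 for Syt14 (9.76 to 10.51). All 4 values remained above every normal lung. Tumor 1 was lowest for Syt6, at 2.26 against 4.87 to 6.69, and highest for Dnm1, at 12.02 against 10.06 to 10.66.

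Among normal lungs, normal lung 4 was lowest for Syt1, at 2.39 against 4.19 to 4.35, which rests on few reads, and highest for Syt9, at 5.84 against 5.20 to 5.31. Normal lung 3 was lowest for Cadps2, at 9.71 against 10.01 to 10.13.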

How the results depend on the processing

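Over 24 alternatives, 40 of the 44 genes kept their call in each one in which they were tested, and no direction of a called gene reversed. The exceptions were Vamp2 and Rab3a, which passed the fold limit in some, and Syt4 and Unc13b, which lost their calls in some. The number called higher ran from 31 (edgeR, 43 tested) to 34, and from 32 to 34 when single samples were left out. The number called lower, 2, became 1 in DESeq2 and in edgeR with TMM or upper quartile factors, which also lack tumor 3, as it did in limma without tumor 3. It became 1 as well under equal totals and with the level of Y-linked genes in the fit (added after seeing the data), and ran from 1 to 2 when single samples were left out. In each case the gene lost was Unc13b. With single samples left out, 25 to 28 genes of the further list were higher and 14 to 15 lower. Over all genes, edgeR with TMM factors called 3767 lower (18308 tested) against 5805 in limma on all samples, and the cause was not tested. Equal totals moved the median log2 fold change of all genes from 0.04 to 0.24. The adjusted p of the gene pairs reached 0.0159 with tumors of 1 title number averaged, 0.00794 without the trachea-titled tumors and 0.00606 with single samples left out. The shift of Cadps to Cadps2 was 11.88 and 8.15 with 0.1 and 8 added in place of 1. No paired analysis was possible because the groups share no title number in the labels. The pair Vamp2 to Vamp3 was not run. Genes under 3 reads in normal lung have bounds, not folds.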

Other observations

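Among transporters that load vesicles with fast transmitters, 3 were called higher in tumor at low counts and 1 was not called. Of all genes tested, 24.0% were called higher. This observation was chosen after the values were seen, and tumors and normal lungs overlapped in all 4. The glutamate transporter gene Slc17a6 was at 0 in every normal lung and had a mean of 27.0 normalized counts in tumors (limma adjusted p = 0.00653). That mean is at least 5.57-fold above 3 reads, and tumors 2 and 3 were at 0 and 1.98. A second glutamate transporter gene, Slc17a8, had means of 4.08 and 43.3 (log2 fold change 2.85, limma adjusted p = 0.0054). The GABA and glycine transporter gene Slc32a1 had means of 0.230 and 12.2 (limma adjusted p = 0.0105). Its tumor mean is at least 2.53-fold above 3 reads, and tumors 1, 2 and 5 were at 0, 3.57 and 1.62. A further glutamate transporter gene, Slc17a7, had means of 30.8 and 58.8 and was not called (log2 fold change 0.66, limma adjusted p = 0.565). Tumor 7, the tumor with the lowest Syt1, was the highest in all 4. Without it the tumor means were 17.1 for Slc17a6, 19.2 for Slc17a8, 7.03 for Slc32a1 and 21.6 for Slc17a7. The bounds then were 3.53-fold for Slc17a6 and 1.45-fold for Slc32a1.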
